A study of Mus musculus with 4 samples.

Results

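Deep intron peaks are stretches of RNA crosslinked to DDX5 that lie inside introns of protein-coding genes, away from the splice sites of the transcript that the authors named for each peak. They were taken from the authors' list of 900 reproducible DDX5 eCLIP peaks by the authors' own class for distant introns. That class held 271 peaks, and 14 of them were dropped because they overlapped an annotated snoRNA, scaRNA, snRNA or rRNA on the same strand by at least 1 nt. The 257 peaks left are described here. They lay in 130 genes on 20 chromosomes, 111 of them on the plus strand. The dropped peaks had log2 enrichments from 3.04 to 8.37, with a median of 4.83.

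The cells were Th17 cells, the helper T cells that make interleukin-17, grown from naive CD4 T cells of female wild-type C57BL/6 mice. For 72 h they were stimulated through CD3 and CD28 with antibodies (anti-CD3, anti-CD28), in the presence of TGFb and IL6. The protocol gives the age as 8 weeks, whereas the design text gives 8 to 10 weeks and 2 mice. After ultraviolet crosslinking, DDX5 was immunoprecipitated (IP) in 2 libraries, each with its own input library, 4 libraries in all. The labels do not say which mouse gave which library. The list gives 1 enrichment per peak for both replicates together, so there is no spread between replicates, and read depth is unknown. No sample comparison could be tested, and differences below are descriptions. Peaks are not replicates, and peaks of 1 gene share their source.

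DDX5 is a DEAD-box RNA helicase that is mostly nuclear and takes part in transcription, splicing and the processing of small RNAs. Introns are found mainly in unspliced precursor RNA or in excised lariats, so a crosslink deep in an intron is usually read as contact with RNA in the nucleus. The 5′ splice site is the border between an exon and the intron after it, and the 3′ splice site is the border at the other end. Many genes also have internal start sites inside a long intron, from which shorter transcripts are made.

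Sequences were available for 6 deep intron peaks in 5 genes, those that lay entirely within 250 bases before to 50 after a RefSeq start on the same strand (GRCm38.p6, the same assembly as mm10). They are shown as the deep intron peaks whose letters could be read, and the window fixed their place beside a start. Each is given 5′ to 3′ on the strand of the RNA, with runs of 3 or more G in capitals.

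Furin, chr7:80402795-80402862, minus strand: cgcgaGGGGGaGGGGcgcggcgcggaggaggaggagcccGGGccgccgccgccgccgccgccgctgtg
Rbbp6, chr7:122970326-122970391, plus strand: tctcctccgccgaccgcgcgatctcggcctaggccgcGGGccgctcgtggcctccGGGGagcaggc
Rbbp6, chr7:122970392-122970439, plus strand: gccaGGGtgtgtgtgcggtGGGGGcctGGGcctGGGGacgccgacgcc
Eif5a, chr11:69920701-69920779, minus strand: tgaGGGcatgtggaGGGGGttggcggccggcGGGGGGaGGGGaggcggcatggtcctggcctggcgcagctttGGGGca
Zfp777, chr6:48047856-48047956, minus strand: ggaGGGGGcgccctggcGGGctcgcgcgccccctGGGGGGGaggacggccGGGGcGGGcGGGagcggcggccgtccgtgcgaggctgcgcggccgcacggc
Cx3cr1, chr9:119983202-119983250, minus strand: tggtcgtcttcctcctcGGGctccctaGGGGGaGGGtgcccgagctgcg

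All 6 stretches were rich in G and C, from 71.4% to 88.2%, with a median of 79.0%. At the matching offset and length, the 32851 RefSeq promoter windows had median GC contents of 50% to 55.9%. The motif GGG was searched on the RNA strand and not on the other, with each run counted once, and all 6 peaks held it, in 2 to 6 runs. At the matching offset and length, GGG was present in 48.8% of all windows for the Cx3cr1 peak and in up to 74.9% for the longer Zfp777 peak. Peaks near splice sites that fell in such windows had a median of 83.7% over 4 peaks, and 5′ UTR peaks had 82.5% over 17. GC content in these windows was thus as high in the other classes, and windows at starts do not stand for the rest of the deep intron peaks.

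These peaks stood from 4.36 to 5.95 on the log2 scale, on both sides of the median of all deep intron peaks, 5.62, and under their upper quartile, 6.00. The Furin peak, in the gene of a proprotein convertase that activates TGF-β, stood at 5.95 on the log2 scale. It reached from 50 nt before an internal RefSeq start to 18 nt past it. The pair in Rbbp6, a RING-type ubiquitin ligase, touched each other and stood at 4.77 and 5.92, between 238 and 125 nt before a start. Eif5a, a translation factor, had 5.79 at 149 to 71 nt before a start. Zfp777, a zinc finger gene, had a stretch of 88.1% GC, more than 99.9% of all windows at that offset, and the lowest enrichment of the group, 4.36. The peak named for Cx3cr1, a chemokine receptor, lay 227 to 179 nt before a start of Csrnp1, a transcription factor gene on the same strand (4.76). It sat in a long intron of a Cx3cr1 transcript, 66028 nt from the closer splice site, so the gene name rests on that transcript.

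Across all deep intron peaks, the median log2 enrichment of IP over input was 5.62, or 49.3-fold. The quartiles were 5.14 and 6.00. The lowest was 3.10, in Rhoq, and the highest 8.36, in Slc22a22. Other peaks outside small RNA genes had a median of 5.23 (563 peaks). Peaks near splice sites stood at 5.38 (214 peaks), 5′ UTR peaks at 5.28 (147) and coding exon peaks at 5.08 (93). A log2 value of at least 6 was reached by 65 deep intron peaks (25.3%) and by 16.5% of the other peaks. As a fold over input, such values can depend on how abundant the RNA is in the input, which was not tested.

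**Figure D1:**
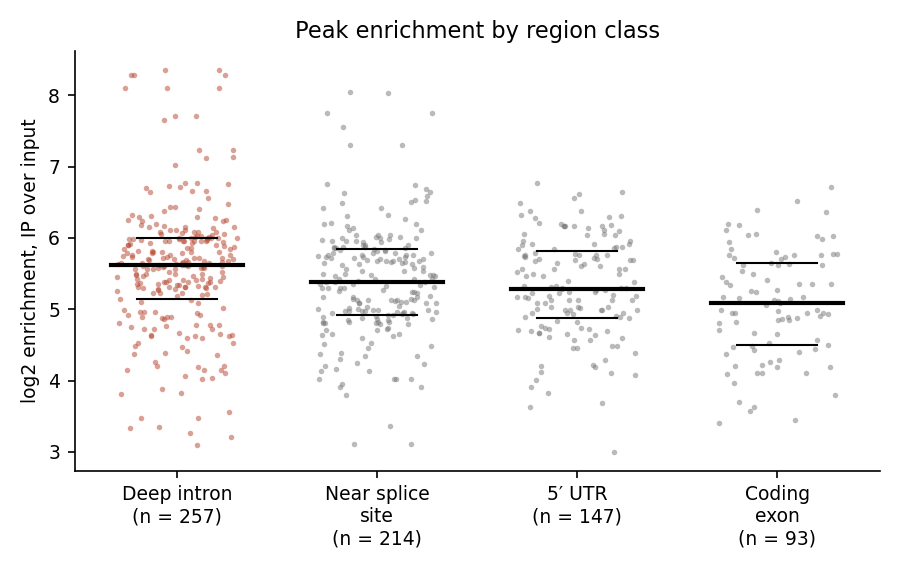
Log2 enrichment of IP over input (y axis) for every peak outside small RNA genes in 4 region classes; thick lines are medians and thin lines quartiles over peaks. Deep intron peaks have a median of 5.62 and coding exon peaks 5.08, and the classes overlap over most of their range.

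Within genes that carried peaks of several kinds, the deep intron peaks were not the higher ones. Of the 130 genes, 45 also had a peak of another class outside small RNA genes, and 85 had deep intron peaks only. In the 45 genes, the mean of deep intron peaks was above the mean of the gene's other peaks in 19. The median difference was -0.08 on the log2 scale. Medians of these gene means were 5.68 for deep intron peaks and 5.65 for the others. The extra peaks lay near a splice site in 26 genes, in a 5′ UTR in 25 and in a coding exon in 9.

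The median peak width was 66 nt, against 68 nt for the 563 other peaks outside small RNA genes. The narrowest was 4 nt and the widest 212 nt. Joining peaks that touched left 221 sites, of which 193 were single peaks and 28 were strings of 2 to 4 pieces. The widest site was 345 nt, in Hdac7, where 3 touching peaks had values of 5.33 to 6.20. The −log10 p of IP over input had a median of 11.5, against 12.3 for the same 563 other peaks. At its ceiling of 400 stood 12 of the 257 deep intron peaks, in 6 genes, and 50 of the 563 others. The 12 lay in Cmss1 (3 peaks), Slc6a20a (3), Furin (2), Peak1 (2), Cdk8 and Spata5.

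Deep intron peaks sat in long introns and mostly in their 5′ part. Intron length was in part fixed by the class, which keeps peaks away from both splice sites, so short introns can hold few. Lengths of introns with other peaks are not set beside it. Over peaks, the intron of the named transcript had a median length of 30.4 kb, with quartiles of 11.8 and 60.6 kb. With each of the 138 distinct introns counted once, the median was 23.8 kb and the quartiles 8.66 and 53.2 kb. The longest, 4384 kb, belonged to a transcript of Gm20388. The 5′ splice site was the closer one for 197 of 257 peaks (76.7%, exact Clopper-Pearson 95% interval 71.0 to 81.7, counting error only). The median distance was 4.29 kb from the 5′ splice site and 19.5 kb from the 3′ splice site. Of 10 equal parts of the intron, the first held 69 peaks, the ninth 5 and the last 0 (which allows up to 1.43% by the exact interval). That interval treats peaks as independent, though peaks of 1 gene share their source. The class also leaves out positions close to a splice site, which in short introns fill the end parts. Counted by gene entry, all peaks were closer to the 5′ splice site in 92 of 126 entries, where a peak named for several genes formed its own entry. Peaks that the authors classed as near a splice site were on the 5′ side in 199 of 214 cases (93.0%).

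**Figure D2:**
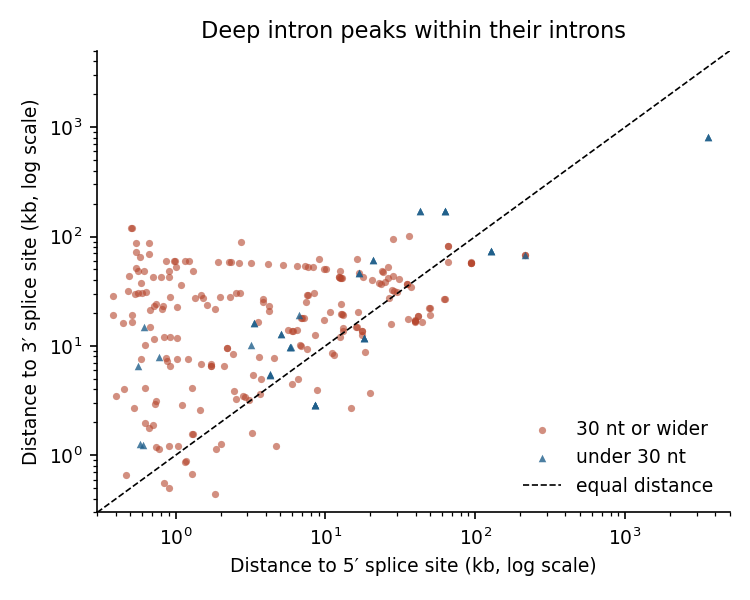
Distance of each of the 257 deep intron peaks to the 5′ splice site (x axis, kb, log scale) and the 3′ splice site (y axis, kb, log scale) of its intron in the named transcript. Points above the dashed line are closer to the 5′ splice site, which holds for 197 peaks; triangles are peaks under 30 nt.

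Enrichment followed depth in the intron only weakly. Peaks under 500 nt from the closer splice site had a median log2 enrichment of 5.70 (9 peaks) and those at 500 nt to 1 kb 5.38 (59). It was 5.61 at 1 to 5 kb (73), 5.73 at 5 to 20 kb (71) and 5.71 beyond 20 kb (45). With the closest splice site of any listed transcript, the same 5 bins had medians of 5.59, 5.61, 5.65, 5.76 and 5.59. By the named transcript, the share on the 5′ side was 88.9% under 500 nt, 91.5% at 500 nt to 1 kb and 60% beyond 20 kb. Spearman's rho between depth and enrichment was 0.10 over 257 peaks, given as a description, since peaks of a gene share their RNA. The class has no sharp edge, because the closest deep intron peak lay 382 nt from a splice site of its named transcript, in Zmynd11, and the farthest peak called near lay 498 nt away.

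Whether a peak was deep often hinged on the transcript. The list shows every annotated intron that holds a peak, up to 11 for a single peak, and over these the closest splice site was under 500 nt away for 93 of 257 peaks (36.2%, 30.3 to 42.4). In 90 of the 93 cases it was a 5′ splice site. For 36 peaks in 35 genes the closest splice site was under 100 nt away, and it was a 5′ splice site in 35. These include Trip12 and Cbarp at 2 nt, Zmiz1 at 4 nt, Bcl11b at 10 nt and Eif5a at 21 nt, and their median log2 enrichment was 5.60. At the other end, 46 peaks (17.9%) were at least 10 kb from every listed splice site. Only introns that hold the peak were measured, so an exon or a start outside these introns' ends may lie closer. The Jmjd1c peak, for example, was 29987 nt from a listed splice site and 330 nt from a RefSeq start of its gene.

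Some peaks far inside a long transcript were of this kind, though a smaller share than of the shallower ones. Of 116 peaks at least 5 kb from a splice site of the named transcript, 30 lay under 500 nt from a splice site of another transcript, with a median of 96 nt. That is 25.9%. Of the 141 peaks under 5 kb, 63 (44.7%) lay that close to a splice site of any listed transcript, the named one included. Among these 141, 9 were under 500 nt from a splice site of the named transcript itself, so the 2 shares are not fully alike. All 30 were next to a 5′ splice site. For 26 of the 30, that intron began within 500 nt of the start of its own transcript. The median of this distance over the 30 was 254 nt. Among all 257 peaks, the intron of the named transcript began that close to its start for 153 (59.5%). Exons were not counted, so these introns need not be the first ones. The median enrichment of the 30 was 5.69. A further 73 peaks in 30 genes were at least 5 kb from every listed splice site, with a median of 5.68.

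**Figure D3:**
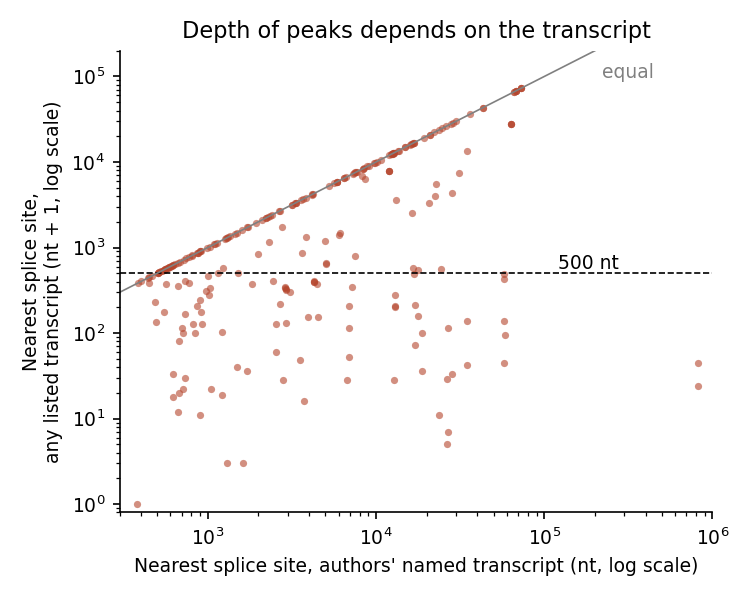
Distance of each deep intron peak to the closest splice site in the transcript named by the authors (x axis, nt, log scale) and over all listed transcripts (y axis, nt plus 1, log scale). Peaks on the grey line are equally deep in both, and 93 peaks fall under the dashed line at 500 nt.

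Named genes show what this looks like. Rora encodes the nuclear receptor RORα, which acts in the Th17 programme. Its 4 peaks lay 94.0 to 94.4 kb inside a 152-kb intron of the named transcript. They were 44, 139, 431 and 486 nt from the 5′ splice site of another listed one. Their log2 values were 5.93, 5.99, 4.98 and 5.99, with 3 nearly equal and 1 lower. The nearest Rora start in the RefSeq table lay at least 636307 nt upstream, so the table, which is incomplete, does not show a start there.

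Rbpj, the DNA-binding partner of Notch, had 3 peaks at 7.13, 6.66 and 6.00. The higher pair lay 34.9 and 35.0 kb into a 71.5-kb intron and 41 and 136 nt past the 5′ splice site of another listed transcript. The lowest stood 4005 nt from any listed splice site. Hif1a, the oxygen-regulated factor that promotes glycolysis in Th17 cells, had 3 peaks at 52, 114 and 341 nt from such a site. They were among the lower ones, at 3.47, 4.21 and 4.60.

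Slc39a10, a zinc transporter, had 4 peaks of 5.23 to 6.43, which lay 39.4 to 39.9 kb inside a 56.6-kb intron. They were 72 to 581 nt from a 5′ splice site of another listed transcript. Hnrnpf, a splicing regulator that binds G-rich RNA, had 3 peaks of 5.95, 7.23 and 6.25 at 27, 205 and 786 nt. Among peaks at least 30 nt wide, the Hnrnpf peak at 7.23 lay just under the top value of 7.24, in Ski.

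RefSeq starts gave a separate view of the same positions. A start of the named gene on the same strand was in the table for 219 of the 257 peaks, and 75 of these lay within 1 kb of one (34.2%, 28.0 to 40.9). By length, 8.90% of the deep parts of the same introns lay that close, a reference that ignores how much RNA each part yields. In 67 of the 75 cases the middle of the peak was downstream of the start, with a median offset of 389 nt. A peak in an intron always lies downstream of the start of that intron's transcript, so this direction was in part fixed in advance. Starts of the named transcript and internal starts were not told apart. Peaks within 1 kb of a start had a median of 5.57 and the 144 farther ones 5.65. The shares within 1 kb were higher for peaks near splice sites (83.6% of 159) and in 5′ UTRs (89.7% of 116).

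Starts on the opposite strand were also found beside some deep intron peaks. Of 252 peaks on chromosomes in the table, 25 in 15 genes lay within 1 kb of such a start (9.92%, against 2.39% by length). The share was higher for peaks near splice sites (17.1% of 205). It was 8.39% of 143 for 5′ UTR peaks and 8.24% of 85 for coding exon peaks, so such starts were not particular to deep intron peaks. Tcf20, a transcriptional coregulator, was the clearest case. Its 5 peaks spanned 0.571 kb 12.3 to 12.8 kb inside a 54.7-kb intron, and all lay 28 to 548 nt from a start of Gm20324 on the other strand. Their log2 values were 6.02, 4.60, 5.95, 5.80 and 5.31. The 3 peaks of Hnrnpf lay within 1 kb of 4933440N22Rik, the pair in Rbbp6 within 68 nt of 4930413G21Rik, and 3 of Hdac7 within 473 nt of Gm33636.

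Peaks were spread over many genes, with a few dense ones. Of the 130 genes, 78 had 1 deep intron peak, 36 had 2 or 3, and 16 had 4 or more. The 16 took 97 peaks (37.7%). They split by layout, since 8 held all their peaks within 1 kb and 8 spread them over more than 10 kb. The compact genes were Furin, Tcf20, Yap1, Zeb1, Chd7, Slc39a10, Gabpb1 and Rora, and the spread ones were Ski, Hdac7, Bcl11b, Il2ra, Sept9, Satb1, Pmepa1 and Sema4d.

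**Figure D4:**
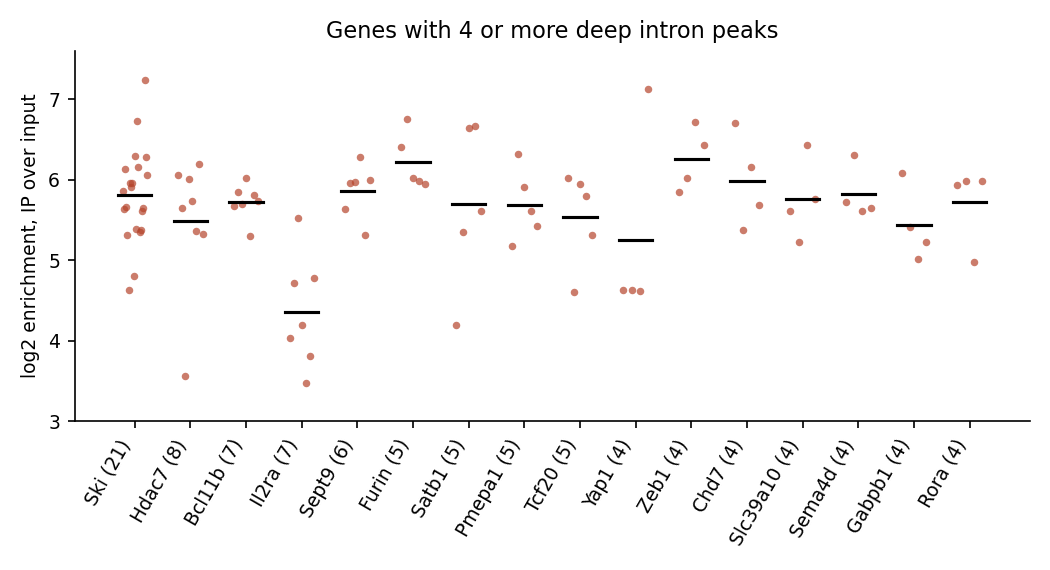
Log2 enrichment of IP over input (y axis) of each deep intron peak in the 16 genes with 4 or more, with the number of peaks in brackets; lines are means over peaks and the sideways order within a gene has no meaning. Il2ra has the lowest mean, 4.36, and Zeb1 the highest, 6.25.

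**Figure D5:**
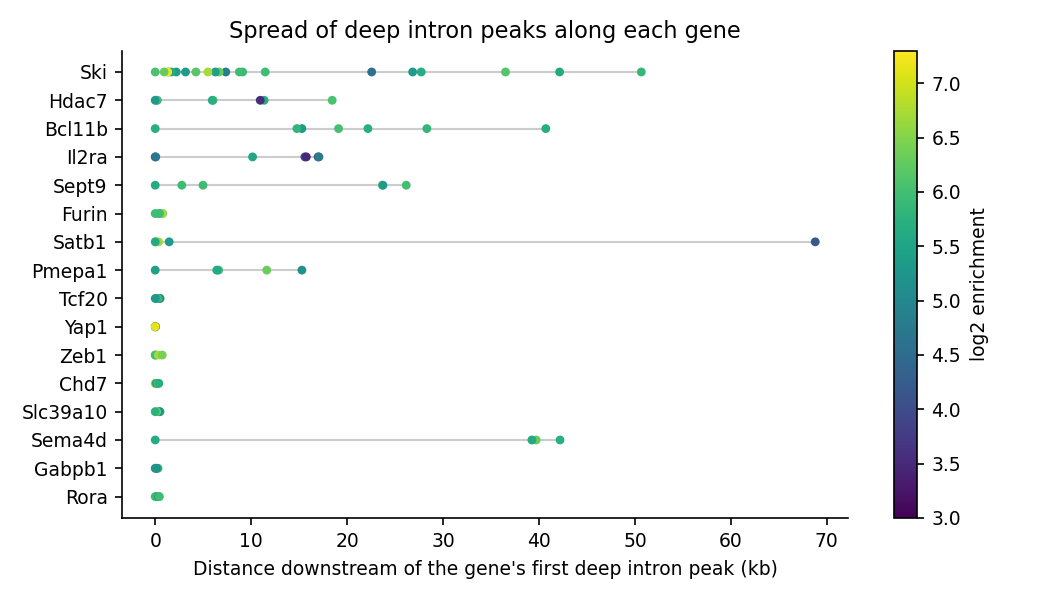
Position of each deep intron peak in the same 16 genes, as distance in kb downstream of the gene's first such peak (x axis), coloured by log2 enrichment. Satb1, Ski, Sema4d and Bcl11b extend over 68.9, 50.7, 42.3 and 40.8 kb, while 8 genes hold their peaks within 1 kb.

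Genes of TGF-β signalling, the cytokine in the culture, held 4 of 33 listed members with a deep intron peak (12.1%). Among all 21900 protein-coding genes of the RefSeq table, 127 had one, which is 0.58%. The share over all genes includes genes that Th17 cells may not express, RNA levels were not in the data used here, and their part in the list counts was not tested. Genes with a deep intron peak were also long, with a median of 59.8 kb against 17.1 kb for all coding genes and 44.8 kb for the 244 genes with other peaks only. The TGF-β list had a median length of 69.0 kb. The listed genes were chosen with earlier results on these data known.

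Ski, which represses transcription by SMAD proteins, had 21 deep intron peaks, all separate sites. In the transcripts named, 18 lay in an intron of 60.6 kb and 3 in one of 27.3 kb. They averaged 5.81 ± 0.59 in log2 enrichment (SD, 21 peaks). In the longer intron, 13 of the 18 lay in the 10 kb next to the 5′ splice site. The highest, 7.24, lay 2.28 kb from it and the lowest, 4.63, 23.5 kb from it.

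Pmepa1, a TGF-β-induced inhibitor of SMAD signalling, had 5 peaks of 5.18 to 6.32 from 1.09 to 16.4 kb into its intron. Furin had 5 peaks of 5.95 to 6.76 within 0.840 kb, with 2 at the ceiling of −log10 p, beside 4 in its 5′ UTR. Zeb1, a zinc finger repressor that works with SMAD proteins, had 4 within 0.788 kb at 5.84, 6.02, 6.71 and 6.43, and 4 others near splice sites.

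T cell transcription factors held 5 of 32 (15.6%), namely Satb1, Bcl11b, Tcf7, Zeb1 and Nfatc2. Genes of this list were long, with a median of 89.7 kb, and 8 of the 32 had a peak of some class. Bcl11b, needed for T cell identity, had the smallest SD of the 16 dense genes, with 7 peaks of 5.30 to 6.02 (mean 5.73 ± 0.22, SD over peaks) over 40.8 kb. Satb1, a chromatin organiser, had 4 peaks within 1.03 kb of a 5′ splice site at 5.35, 6.65, 6.66 and 5.61, and 1 far downstream at 4.20. Nfatc2, a calcium-regulated factor, had 1 peak at 6.15 and Tcf7, which encodes TCF1, had 1 at 5.67, lying 3836 and 6438 nt from a splice site in every listed transcript.

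Cytokine receptor and JAK-STAT genes held 4 of 35 (11.4%), and 9 of the 35 had a peak of some class. The median length of this list was 28.8 kb. Il2ra, the α chain of the interleukin-2 receptor, had 7 peaks in a 31.2-kb intron and none of another class. Their log2 values were 4.03, 4.72, 5.52, 4.19, 3.47, 3.82 and 4.78 from the 5′ to the 3′ end. A touching pair lay 559 and 599 nt from the 5′ splice site, the highest peak at 10.7 kb, and 4 peaks at 16.1 to 17.6 kb. The mean was 4.36 ± 0.69 (SD over 7 peaks), the lowest of the 16 genes with 4 or more. Il21r (5.67), Il4ra (4.92) and Jak3 (4.48, a peak also named for Insl3) had 1 each.

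Other T cell lists had fewer. Th17 programme genes held 3 of 32 (9.38%), which are Rora, Rbpj and Hif1a, while Il17a, Il17f and Stat3 had no peak of any class. Treg markers held 1 of 18, Il2ra, and Foxp3 had none. T cell receptor signalling and costimulation genes held 2 of 37, Nfatc2 and Map3k1 (5.47). Ddx5 itself had no peak. Markers of B cells, myeloid cells, cytotoxic and NK cells, and erythroid cells together held 0 of 48. Beside 0.58% of all coding genes this 0 says little, and these genes are short, with list medians of at most 14.9 kb. A gene without a peak in this list is not shown to be unbound.

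Chromatin regulators held 6 of 42 (14.3%), and 8 of the 42 had a peak of some class. The list was long in genes too, with a median of 79.7 kb. Hdac7, a class IIa histone deacetylase, had 8 peaks of 3.56 to 6.20 over 18.6 kb, and Chd7, a chromatin remodeller, had 4 within 0.430 kb at 6.70, 5.38, 6.16 and 5.69. The 3 peaks of Arid1a, a subunit of the BAF complex, were alike at 5.28, 5.31 and 5.34. Jarid2, a cofactor of Polycomb complex PRC2, had 1 at 5.95 and its catalytic partner Ezh2 1 at 4.92. The DNA methyltransferase gene Dnmt3a had 1 at 5.72.

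RNA-binding and splicing genes held 4 of 46 (8.70%), and 13 of 46 had a peak of some class outside small RNA genes. Beside Hnrnpf these were Hnrnpk, with a touching pair at 5.43 and 5.79, Ago2, the small RNA effector, at 6.07, and Mbnl1, a splicing regulator, at 4.78. Ubiquitin ligases and deubiquitinases held 3 of 35, with Usp9x at 4.72, Znrf1 at 4.65 and Traf6 at 4.02, all under the median of deep intron peaks. The ubiquitin ligase gene Rbbp6 was not on this list, and 1 of its peaks stood above that median, at 5.92. Growth-signalling kinases and phosphatases held 2 of 38, Map3k1 and Prkch (5.59).

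The spread genes outside these lists were Sept9 and Sema4d. Sept9, a septin of the cytoskeleton, had 6 peaks of 5.31 to 6.28 over 26.2 kb and none of another class. Sema4d, a semaphorin on T cells, had 4 of 5.62 to 6.31. Gabpb1, a subunit of the transcription factor GABP, had 4 in 2 joined sites of 5.02 to 6.09.

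A set of very narrow peaks differed in form from the rest. Under 30 nt wide were 39 peaks in 20 genes, of which 31 were pieces of joined sites. Counted by peak, their median log2 enrichment was 6.09 and their median −log10 p 50.4, against 5.61 and 10.7 for the 218 wider peaks. Narrow peaks of 1 gene often had equal values, as in Slc6a20a with 3 at 6.09. These medians thus count some places repeatedly, and medians with 1 value per gene were not computed for the narrow peaks. Within 1 kb of a RefSeq start of their gene lay 3 of the 39, against 72 of 218, with peaks lacking an entry in the table counted as farther. In 18 of the 20 genes there was no peak of another class, against 67 of the 110 genes with wider peaks only.

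The 5 highest deep intron genes came from this set. Slc22a22, an organic anion transporter gene, had a site of 52 nt at 8.36, 43.0 kb from the closer splice site, and Plcb4, a phospholipase C gene, a site of 26 nt at 8.29. Pdgfra, a growth factor receptor of mesenchymal cells, had a site of 25 nt at 8.11, and Auts2 a site of 29 nt at 7.71. The Plcb4, Pdgfra and Auts2 pieces had equal values within a site. In Peak1, the pieces stood at 7.66 and 4.06 and overlapped an annotated microRNA gene, Gm24270, and in Yap1, a Hippo pathway coactivator, 4 pieces within 0.035 kb stood at 4.64, 4.64, 4.62 and 7.12. Slc5a11, a transporter gene, had 2 pieces at 6.77, and Col6a6, a collagen gene, had 1 wider peak of 59 nt at 7.03. Whether reads at these sites map to other copies of the sequence was not tested.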

How the data were processed

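Per the labels' protocols, RNA was trimmed with limited RNase after crosslinking and DDX5 complexes were pulled down with an antibody. The build was mm10 and the tools STAR 2.4.0i, SAMtools 1.4.1 and cutadapt 1.9.1, per the submitters' processing notes. Per the deposited settings, each IP was normalised to its own input and the replicates were joined by irreproducible discovery rate. The deposited log2 enrichment and the deposited −log10 p are the authors' values per peak, and the lowest log2 value was 3.00. For the peak caller and annotation release, versions were not given in the sources used here. Starts in the file count from 0, and printed coordinates are 1-based. Distances run from the peak's closer edge to intron ends in the authors' annotation column. Per the file headers no value belongs to a single replicate, so no test was run. Counts used Python 3.11.15 and pandas 2.3.3, and functions were tested on simulated data. Peaks were joined at a gap of 0 nt. Intervals are exact Clopper-Pearson at 95%.

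Members and gene lists were chosen with earlier results of these data known. The text names genes with 4 or more members, the 12 genes with the highest peak, up to 4 members of each of 15 lists, and all members of the TGF-β, Th17 and Treg lists. Ddx5, Stat3, Il17a, Il17f and Foxp3 are named in any case. Some results that these rules would name are not reported here. Other genes were named after their values were seen. The RefSeq start table is incomplete, and intron numbers and a genome were not used here.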

Additional observations from a re-analysis of the deposited data

How the results depend on the processing

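The peak list gives 1 value for both replicates, so nothing could be recomputed without replicate 1 or 2. No paired analysis was possible because no value belongs to a single library. The share in the first intron and the median GC of all members were planned and not run, since intron numbers and a genome were not used here. With at least 500 nt required to every listed splice site, 164 peaks in 79 genes and 145 sites were left, because 93 peaks failed it, and the 3 densest genes held 20.7% of peaks in place of 14.0%. Without Ski they held 9.32%. With splice sites taken over all listed introns, chosen after seeing the data, the 5′ side held 87.2% in place of 76.7%. A log2 enrichment of at least 4, a −log10 p of at least 5, further small RNA types dropped, 1 value per gene, wider joining gaps and peaks of at least 30 nt moved the medians by less than 1 SD over peaks, kept shares within their intervals and kept counts within 1.5 times. For log2 enrichment that SD was 0.93, which is more than the excess over other peaks, so this bound says little about the excess. The excess in median log2 enrichment was 0.39 as reported. It ran from 0.27, with 1 value per gene, to 0.42, with at least 500 nt to every listed splice site. Depth per library is unknown, so it limits every value to an unknown extent.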

Other observations

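Set, Anp32a and Anp32b, which are genes of histone-binding proteins, were among those with deep intron peaks. They were picked after their values were seen and were on no list, and their number is not set against other genes of histone-binding proteins. Anp32b had 3 peaks at 4.89, 5.20 and 5.57, all 771 to 1027 nt from the 5′ splice site. Anp32a had 2 at 5.87 and 5.41. Set had 1 at 5.72, which lay 1218 nt from the 3′ splice site of the named transcript, 101 nt from a splice site of another listed transcript and 521 nt from a RefSeq start of Set.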
